A study of Mus musculus with 12 samples.

Results

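The effect of a human KDM6B transgene on gene expression in mouse blood stem and progenitor cells was read as an average over 2 Tet2 backgrounds. All 12 libraries of the series entered: 6 carried the transgene and 6 did not, with Tet2 status as a second term in the model. Of the 15366 genes listed, the 13046 with a CPM (reads of a gene scaled to a common library total) above 1 in at least 3 libraries were tested. RNA came from bone marrow LSK cells (lineage-negative, Sca-1-positive, Kit-positive) of untreated C57BL/6 mice. Without the transgene stood 3 libraries of genotype Vav Cre, called Vav Cre here, and 3 of Vav Cre/Tet2 flox/flox, called Tet2 KO. With it stood 3 libraries of Vav human KDM6B, called KDM6B OE, and 3 that join all these alleles (Vav human KDM6B, Vav Cre and Tet2 flox/flox), called double lesion. The KDM6B OE label names no Cre, while all libraries of the other 3 groups carry Vav Cre. With intact Tet2 the transgene and the absence of Cre therefore cannot be told apart. The averaged effect and the difference between backgrounds both include that comparison and carry the same limit. In the Tet2-floxed comparison both groups carry Cre. The labels do not state the age of the mice. They also do not say whether each library is a separate mouse, and p-values here measure only the sample-to-sample spread, part of which may be technical.

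KDM6B, also known as JMJD3, is a demethylase of histone H3 lysine 27, whose trimethylation is a mark laid down by the Polycomb complex PRC2 on silent genes. It is itself induced in stimulated macrophages and takes part in inflammatory gene programmes. TET2 oxidises 5-methylcytosine and is among the genes most often mutated in clonal blood disorders. Regulatory sequences of Vav drive expression throughout the blood system from the stem cell onwards, so a Vav transgene or Vav Cre is active in LSK cells and in their progeny alike.

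The libraries held 21935022 to 26263370 recovered reads on listed genes. The stem cell receptor Kit lay at 356.1 to 906.8 CPM and Ly6a, which encodes Sca-1, at 78.2 to 180.0 CPM in all 12. Transcripts of the Y chromosome were found in 2 libraries of each arm (Tet2 KO 1, Vav Cre 1, and double lesion 1 and 3). Vav Cre 2 stood farthest out on the first principal component (-53.7 against -22.6 to 31.2 in the others), and Tet2 KO 2 held 7885 CPM of B cell transcripts against 386.3 to 1805 CPM elsewhere. The median SD of a gene's log2 value was 0.28 in Vav Cre, 0.21 in Tet2 KO, 0.15 in KDM6B OE and 0.15 in double lesion. Counts of changed genes are given with these libraries and, where they move, without them. The kit does not mark strand, and exons of Tet2, Ezh2, Jun, Junb, Jund, Vcam1, Stat3, Hoxa9, Ear1, Alas2, Top2a, Tk1, Rps2 and Gapdh overlap those of other annotated genes, so their values are uncertain to that extent.

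The targeted genes were read first. The build named is mouse mm10, and no separate value stands for the human KDM6B transcript. Whether reads of that transcript were counted as mouse Kdm6b was not tested. Mouse Kdm6b (chromosome 11, 69398508 to 69413675, GRCm38, exons overlapping the opposite-strand Kdm6bos) lay at 6.37, 6.54 and 7.91 CPM in Vav Cre and at 6.90, 5.46 and 5.77 CPM in Tet2 KO. In the transgene arm it lay at 12.5, 7.79 and 10.4 CPM in KDM6B OE and at 9.92, 12.3 and 9.30 CPM in double lesion. All but KDM6B OE 2 lay above every library without the transgene. The mean was 10.4 ± 1.82 CPM against 6.49 ± 0.869 CPM (SD, n = 6 each), a ratio of 1.60 (exact permutation test within Tet2 backgrounds, two-sided, 400 arrangements, p = 0.01, where the smallest possible p is 0.005). Across all genes its log2 difference was 0.60 ± 0.15 (SE; limma, Benjamini-Hochberg adjusted p = 0.0401). That call was lost when any library other than KDM6B OE 2, Tet2 KO 1 or Vav Cre 3 was left out, without a filter on low values, and with the trend over transcript length and GC content removed (adjusted p up to 0.342 over its alternatives). Tet2 (chromosome 3, 133463679 to 133545139) lay at 24.1 to 37.2 CPM in the 6 floxed libraries and at 64.9 to 97.1 CPM in the 6 others. The floxed mean was 37.1% of the others (exact permutation test within transgene arms, two-sided, p = 0.005), and between transgene arms Tet2 stood at 0.12 ± 0.13 (limma adjusted p = 0.609).

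In LSK cells with the transgene, immediate early genes rose by up to 3.65 on the log2 scale (Fos), together with early response phosphatases and mRNA decay factors. Genes of mitosis and of ribosomal proteins fell by less, with list medians of -0.46 and -0.37. In the limma fit, 760 genes changed (5.83% of those tested), 406 higher (3.11%) and 354 lower (2.71%). The rises were larger than the falls: 66 genes rose by 2-fold or more and 3 fell by 2-fold or more. The median log2 difference was 0.65 among genes that rose, -0.40 among those that fell and 0.02 over all genes. The 6 transgene libraries lay above all 6 others for 207 genes (1.59% of those tested) and below all 6 for 84 (0.644%). Of the genes past the test, 167 and 47 were separated in this way. At the threshold, Plekhb2 passed (0.44 ± 0.12, limma adjusted p = 0.0499) and Atp5j did not (-0.35 ± 0.10, limma adjusted p = 0.0501). The Tet2 term of the same fit called 34 genes (0.261%). With the length and GC trend removed the transgene split was 280 higher and 436 lower, and with DESeq2 on the recovered reads it was 729 and 986.

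**Figure D1:**
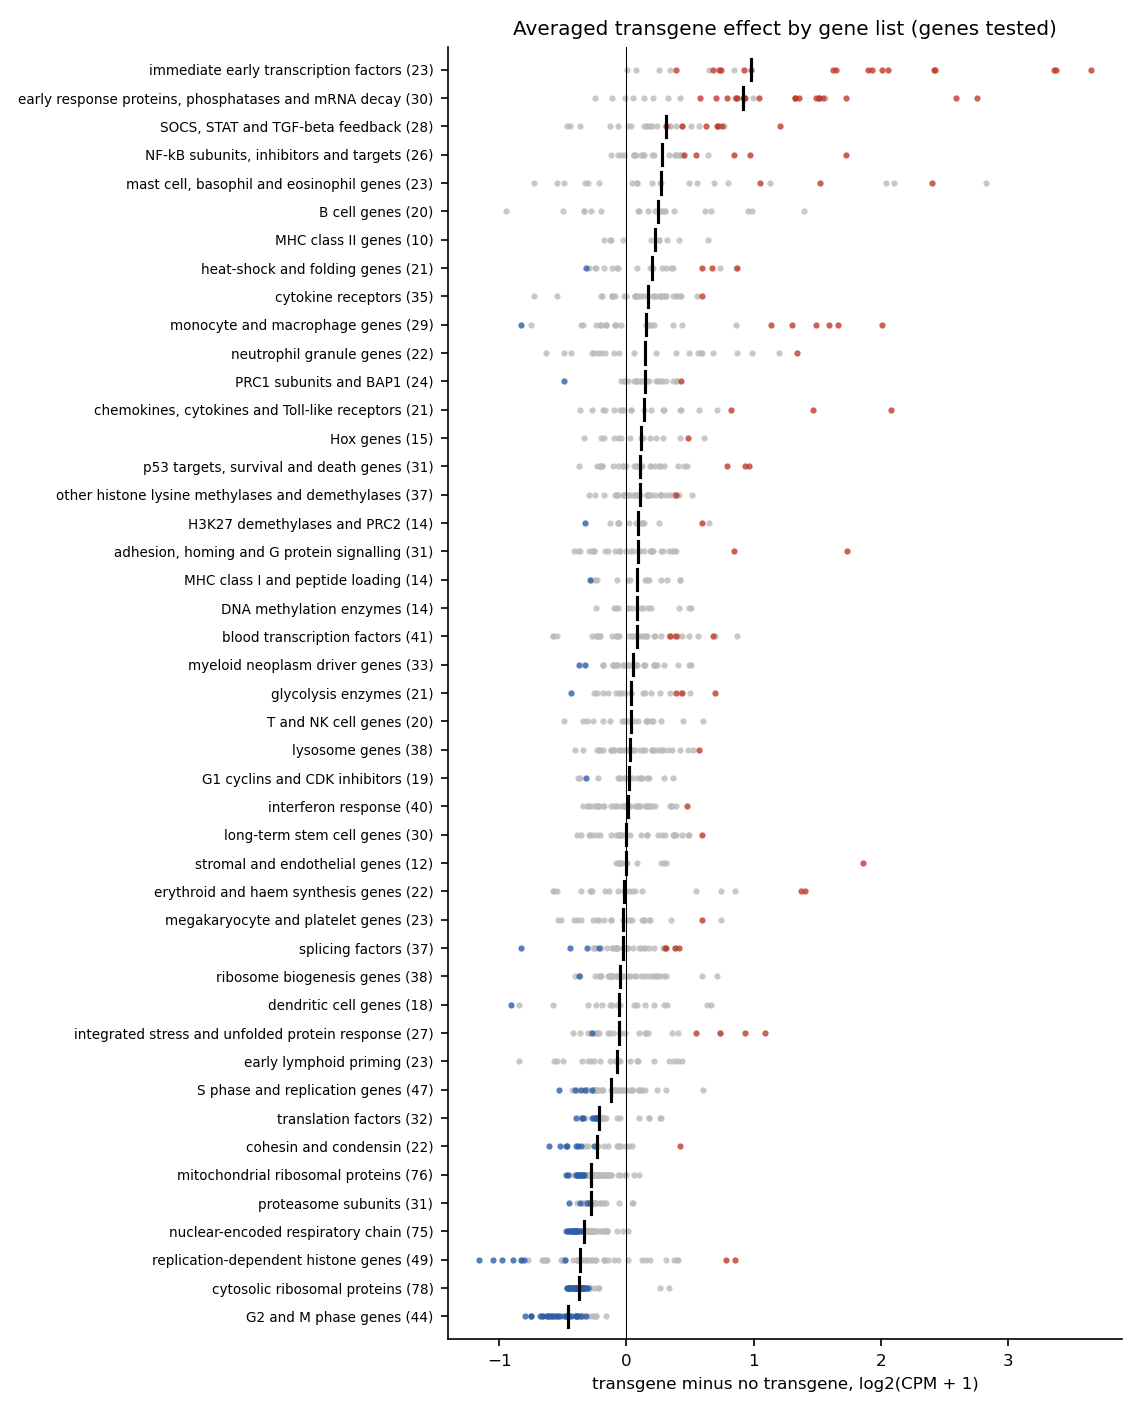
Averaged transgene effect by gene list. Each point is 1 tested gene at its log2(CPM + 1) difference, 6 transgene libraries minus 6 without. Red points rose, blue points fell and grey points did not pass the limma test. Black bars are list medians, and the number tested stands in parentheses. The 2 early gene lists have medians of 0.98 and 0.92, and all 44 genes of G2 and M phase lie below 0.

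Immediate early genes encode transcription factors that cells induce rapidly, without new protein synthesis, after growth factors, cytokines, stress or handling of tissue. Of 26 such genes, 23 were tested, 17 rose and none fell, with a median of 0.98 against 0.02 over all genes. All 23 values were positive. Summed over the list, the 6 libraries without the transgene held 1560 to 3253 CPM and the 6 with it 5779 to 9079 CPM. In bulk RNA, more cells of a state and more RNA per cell cannot be told apart. The count was 10 without KDM6B OE 2, KDM6B OE 3 or Vav Cre 1 and 11 without KDM6B OE 1, Tet2 KO 2, double lesion 2 or double lesion 3. With Vav Cre 2 and Tet2 KO 2 both left out it was 10.

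Fos, which pairs with Jun proteins to form AP-1 (chromosome 12, 85473890 to 85477273), lay at 68.6, 54.6 and 182 CPM in Vav Cre, 32.8, 199.6 and 293 CPM in Tet2 KO, 717, 1666 and 1431 CPM in KDM6B OE and 716, 2256 and 2031 CPM in double lesion. The lowest library with the transgene was above the highest without it, and the averaged rise was 3.65 ± 0.47 (SE; limma adjusted p = 0.000627). Among libraries without the transgene, Tet2 KO 1 was lowest and Tet2 KO 3 highest. Egr1, a zinc finger transcription factor (chromosome 18, 34859823 to 34864984), ranged from 17.1 to 59.3 CPM (median 40.6) without and from 226 to 673 CPM (median 416) with the transgene. It rose by 3.36 ± 0.26 (limma adjusted p = 5.16e-06). The groups were again fully apart, with Vav Cre 2 lowest at 17.1 CPM.

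The Krüppel-like factors followed the same pattern. Klf2, which holds lymphoid and endothelial cells in quiescence (chromosome 8, 72319033 to 72321656), lay at 2.92 to 11.3 CPM (median 8.20) without and 32.5 to 101 CPM (median 92.9) with the transgene. Its rise was 3.38 ± 0.32 (limma adjusted p = 3.19e-05), and double lesion 1 was the lowest transgene library. Klf6, a zinc finger factor of the same family (chromosome 13, 5861482 to 5870394) lay at 98.8 to 163 CPM (median 121) without and 428 to 810.0 CPM (median 771) with it, a rise of 2.43 ± 0.16 (limma adjusted p = 3.06e-06). Klf4, which is also a monocyte factor, rose by 2.01 ± 0.34 from a median of 0.604 to 6.70 CPM. Of the AP-1 partners, Junb rose by 1.65 ± 0.15, Jund by 1.93 ± 0.27 and Jun by 1.62 ± 0.20. The stress-responsive Atf3 was nearly absent without the transgene (0.0463 to 0.954 CPM) and lay at 2.30 to 17.4 CPM with it. Nr4a1, an orphan nuclear receptor induced by the same signals, rose by 2.06 ± 0.37, and KDM6B OE 1 stood apart at 52.8 CPM. Members that did not pass included Klf10, at 157 ± 23.4 CPM without and 156 ± 19.8 CPM with the transgene (SD, n = 6 each). Jun, Atf3 and Klf10 were picked out after their values were seen.

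**Figure D2:**
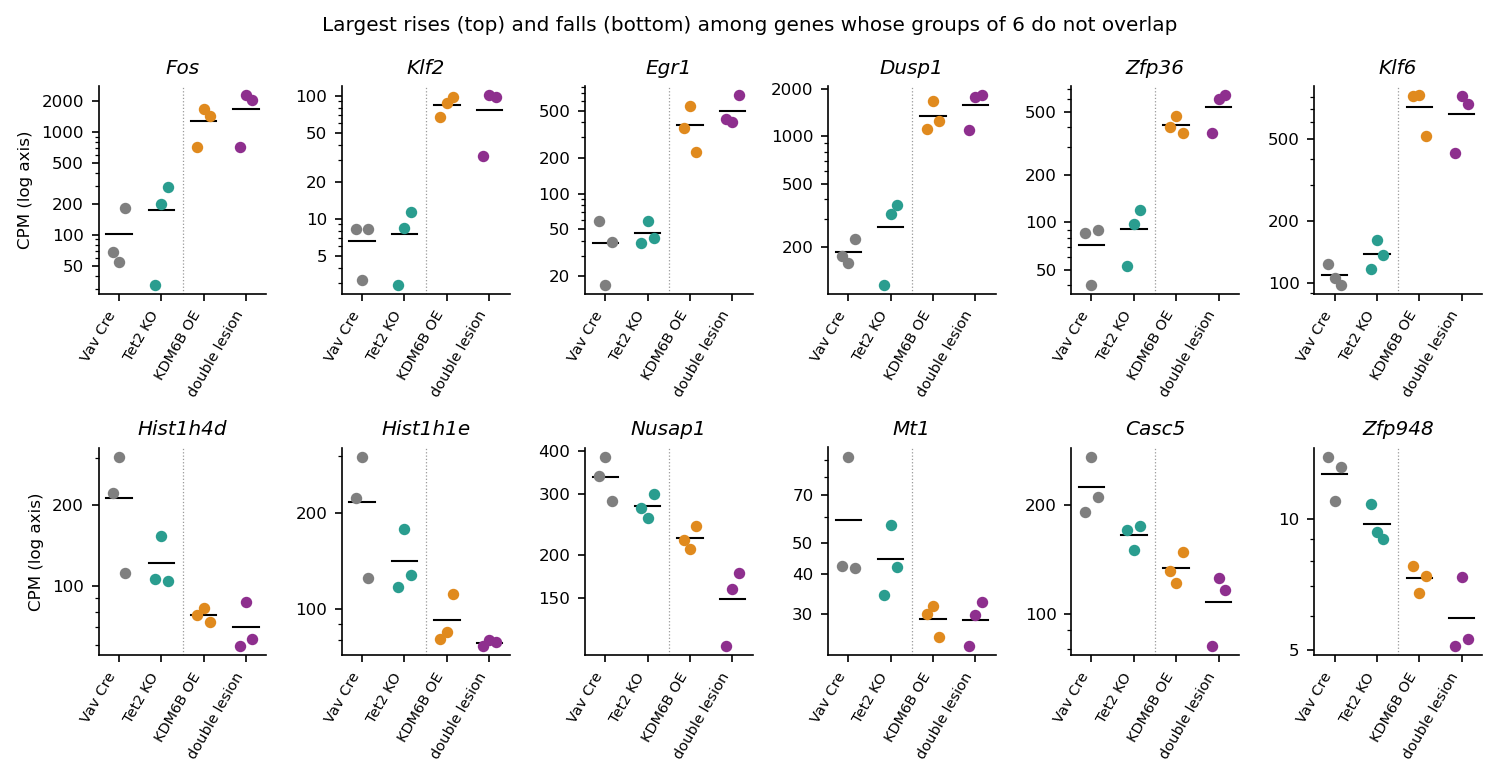
CPM by library on log axes for 6 genes with the largest rise and 6 with the largest fall among those whose groups of 6 did not overlap. Points are libraries, bars are means of the 3 libraries of a genotype, and the dotted line parts libraries without the transgene (left) from those with it (right). Fos lay at 32.8 to 293.1 CPM on the left and at 715.5 to 2256 CPM on the right.

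The second list held early response proteins, among them phosphatases of MAP kinases and proteins that destabilise mRNA. Of 30 tested, 19 rose and none fell, with a median of 0.92. For 17 of the 30 all transgene libraries lay above all others, against 1.59% of all genes tested. Dusp1, a nuclear phosphatase that switches off MAP kinases (chromosome 17, 26505590 to 26562128, exons overlapping Ergic1), lay at 116 to 366 CPM (median 200.1) without and 1102 to 1810.5 CPM (median 1460.4) with the transgene. It rose by 2.75 ± 0.23 (limma adjusted p = 9.4e-06). Zfp36, which encodes tristetraprolin and marks AU-rich mRNAs for decay (chromosome 7, 28376784 to 28380253, exons overlapping Gm44710), lay at 40.3 to 119.6 CPM (median 87.7) and 369.8 to 636 CPM (median 438). Its rise was 2.59 ± 0.22 (limma adjusted p = 8.93e-06). In both genes the arms were apart. The lowest library was Tet2 KO 1 for Dusp1 and Vav Cre 2 for Zfp36. Ier2 and Ier5, small nuclear proteins of the early response, rose by 1.52 ± 0.12 and 1.33 ± 0.10 with narrow spreads: Ier2 lay at 225 to 389 CPM without and 735 to 960.0 CPM with the transgene. The antiproliferative Btg2 rose by 1.52 ± 0.14 and the phosphatase Dusp2 by 1.55 ± 0.16, both picked out after their values were seen. Ppp1r15a, which restores translation after stress, rose by 1.72 ± 0.29; its exons overlap Tulp2. This count stayed between 15 and 22 with any library left out.

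Promoters of 3 genes from these lists are shown because the letters TGACGT, the core of the site that CREB and ATF proteins bind, stand in them. They are the 250 bases before the RefSeq start on GRCm38.p6, written 5′ to 3′ on the gene's strand, and capitals mark TGACGT on either strand (TGACGTCA holds it on both). Fos is chr12:85473640-85473889 on the plus strand, Dusp1 chr17:26508473-26508722 on the minus strand and Ppp1r15a chr7:45526269-45526518 on the minus strand. The Dusp1 window lies inside the annotated span given above, which comes from GENCODE and reaches upstream of the RefSeq start.
Fos: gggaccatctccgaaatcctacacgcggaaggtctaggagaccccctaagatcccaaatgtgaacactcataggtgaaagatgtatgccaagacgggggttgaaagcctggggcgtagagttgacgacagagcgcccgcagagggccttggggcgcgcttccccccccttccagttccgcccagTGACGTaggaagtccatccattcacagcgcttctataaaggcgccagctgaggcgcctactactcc
Dusp1: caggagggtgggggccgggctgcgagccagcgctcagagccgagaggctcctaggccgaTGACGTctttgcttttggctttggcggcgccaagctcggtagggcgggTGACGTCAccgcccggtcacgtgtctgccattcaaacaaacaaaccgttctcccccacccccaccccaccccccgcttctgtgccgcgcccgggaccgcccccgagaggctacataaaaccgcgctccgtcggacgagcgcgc
Ppp1r15a: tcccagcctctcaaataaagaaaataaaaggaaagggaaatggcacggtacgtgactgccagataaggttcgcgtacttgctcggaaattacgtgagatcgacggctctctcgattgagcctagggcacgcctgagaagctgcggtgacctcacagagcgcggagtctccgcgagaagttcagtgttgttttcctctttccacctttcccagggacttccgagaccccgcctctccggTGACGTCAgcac
Among tested genes with a single listed start, 10.7% (847 of 7905) held TGACGT in this window. The share was 13.7% (32 of 234) among genes that rose, 12.8% (30 of 234) among those that fell and 25.6% (10 of 39) in the 2 early gene lists. It was 20.4% (10 of 49) among cytosolic ribosomal protein genes, of which 40 fell and none rose. A match describes the letters and does not show a bound site.

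Some inflammatory signalling genes rose, where 3.11% of all genes tested rose. Of 26 NF-kB genes tested, 5 rose and none fell, with a median of 0.28. Nfkbiz, a nuclear cofactor of NF-kB, rose by 1.73 ± 0.19 (limma adjusted p = 0.000114) from 11.9 to 17.6 CPM without to 30.7 to 81.9 CPM with the transgene. The inhibitor Nfkbid rose by 0.98 ± 0.15. Of 21 chemokine, cytokine and Toll-like receptor genes tested, 3 rose. Ccl4, a chemokine that draws monocytes and T cells, rose by 2.08 ± 0.20 (limma adjusted p = 3.19e-05), with 18.7 to 39.7 CPM without and 76.0 to 189.6 CPM with the transgene. Its neighbour Ccl3 rose by 1.46 ± 0.23, and here the arms overlapped. Csf1, a macrophage growth factor, stood at 0.82 ± 0.22 (limma adjusted p = 0.0412) and lost its call without any library other than Vav Cre 3 or Tet2 KO 1 (adjusted p up to 0.159 over its alternatives). The NF-kB count of 5 was 2 without KDM6B OE 1 or KDM6B OE 2 and 8 without Vav Cre 3, and the chemokine count of 3 was 6 without Vav Cre 3. With Vav Cre 2 and Tet2 KO 2 both left out each count was 2.

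Of 28 SOCS, STAT and TGF-beta feedback genes of cytokine signalling, 7 rose and none fell, where 3.11% of all genes tested rose. The list median was 0.31, and 5 of the 28 values were negative. Socs3, which blocks JAK and STAT signalling downstream of gp130, rose by 1.21 ± 0.22 (limma adjusted p = 0.00993), with 4.41 to 11.2 CPM without and 12.7 to 26.3 CPM with the transgene. Pim3 stood at 0.72 ± 0.15 and Stat3 at 0.43 ± 0.09, and both lost their call without KDM6B OE 1 or KDM6B OE 2, Stat3 also without Tet2 KO 2 (limma adjusted p up to 0.0649 and 0.0655). The list count was 1 without KDM6B OE 1 or KDM6B OE 2, 2 without Tet2 KO 2, 3 without Vav Cre 1, double lesion 1 or double lesion 3, and 4 without KDM6B OE 3, Tet2 KO 3 or double lesion 2. Rgs1 and Rgs2, brakes on G protein signalling from chemokine receptors, were the 2 of 31 adhesion and G protein genes to rise, by 1.73 ± 0.18 and 0.85 ± 0.14. Rgs1 lay at 80.9 to 184 CPM without and 277 to 538 CPM with the transgene. The survival factor Mcl1, of the BCL2 family, rose by 0.79 ± 0.08 (limma adjusted p = 4.75e-05), from 156 to 214 CPM to 292 to 345 CPM. The chaperone cofactor Dnajb1 rose by 0.87 ± 0.13. It was 1 of 3 among 21 heat-shock and folding genes to rise, while 1 fell, a count of 4 that was 1 without KDM6B OE 1, KDM6B OE 2, Tet2 KO 3, double lesion 1 or double lesion 3 and 2 without KDM6B OE 3, Tet2 KO 2, Vav Cre 1 or Vav Cre 2. Of 40 interferon response genes 1 passed, near the 3.11% over all genes, with a list median of 0.01. It was Stat2 (0.48 ± 0.12, limma adjusted p = 0.0407), which lost its call in 11 of 25 alternatives, among them leaving out any library other than Vav Cre 3, Tet2 KO 1 or Tet2 KO 3 (adjusted p up to 0.110).

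Some genes of mature cells also differed, although most of their lists did not. Of 29 monocyte and macrophage genes tested, 6 rose and 1 fell, with a median of 0.15. Over all genes tested 5.83% were called in either direction. Klf4, counted here, also stands in the immediate early list. C1qb, a subunit of complement C1q made by tissue macrophages, lay at 2.42 to 9.74 CPM (median 6.30) without and 11.2 to 29.4 CPM (median 22.6) with the transgene. It rose by 1.67 ± 0.27 (limma adjusted p = 0.00502), and the arms did not overlap. C1qc, another subunit, rose by 1.49 ± 0.28. C1qa and the mannose receptor Mrc1 stood at 1.60 ± 0.34 and 1.31 ± 0.28, each losing its call without KDM6B OE 1, Tet2 KO 2 or double lesion 1 (limma adjusted p up to 0.0649 and 0.0711). Vcam1, which macrophages and marrow stroma carry, rose by 1.86 ± 0.29 (limma adjusted p = 0.00401), from 1.995 to 9.33 CPM to 13.7 to 39.5 CPM. It was the 1 of 12 stromal and endothelial genes to rise. Mpeg1, another macrophage gene, was the 1 that fell (-0.83 ± 0.23, limma adjusted p = 0.0489), and Csf1r and Cd68 did not pass (0.17 ± 0.35 and 0.16 ± 0.11). C1qa, Mrc1, Mpeg1, Csf1r and Cd68 were picked out after their values were seen. The summed list ran from 922.8 to 1529 CPM without and 861.2 to 1519 CPM with the transgene. Its count of 7 was 4 without KDM6B OE 1, Tet2 KO 2 or double lesion 1.

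Genes of granulocytes, red cells and lymphocytes varied between libraries of the same group. In the mast cell, basophil and eosinophil list 3 of 23 rose, where 3.11% of all genes tested rose. Its sums ran from 739.2 to 2073 CPM without and 964.4 to 5317 CPM with the transgene. Ear1, an eosinophil ribonuclease, rose by 2.40 ± 0.47 (limma adjusted p = 0.0139) from 0 to 11.1 CPM to 1.80 to 64.9 CPM, with double lesion 1 highest. Alox15, a lipoxygenase of eosinophils and macrophages, rose by 1.52 ± 0.26. The count of 3 was 5 without Vav Cre 1 or Vav Cre 3. The granule gene Epx, picked out after its values were seen, did not pass (2.82 ± 0.88, limma adjusted p = 0.0643) and ran from 0.395 to 119.9 CPM without and 27.2 to 1043 CPM with the transgene. Of 22 erythroid genes 2 rose, Alas2 and Slc4a1, against 5.83% of all genes called in either direction. Alas2 lost its call without KDM6B OE 2 or double lesion 1, and Slc4a1 in 10 of 23 alternatives. The count was 0 without KDM6B OE 2 or double lesion 1, 1 without Vav Cre 1, Vav Cre 2, KDM6B OE 3, Tet2 KO 2, Tet2 KO 3 or double lesion 2 and 3 at most, while the highest sum was in Vav Cre 2 (6385 CPM against 3475 to 4122 CPM in all others). None of 20 B cell genes and none of 20 T and NK cell genes passed, against 5.83% of all genes, and the highest B cell sum was in Tet2 KO 2. Without Vav Cre 3 the B cell count was 4. The part of such cells in the results was not tested.

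Calls among stem cell and lineage genes are read against the 5.83% of all genes called in either direction. The 30 long-term stem cell genes tested had a median of 0.00, and none fell. None of 23 early lymphoid genes passed. Of 15 Hox genes, Hoxa9 rose (0.48 ± 0.10, limma adjusted p = 0.0162; 0.0528 without KDM6B OE 1), with 75.6 to 99.4 CPM without and 89.5 to 145 CPM with the transgene. Of 41 blood transcription factors 3 rose, among them Myc, which drives growth, at 490.4 to 772 CPM (median 613) without and 721 to 923 CPM (median 774) with the transgene. Myc and Cebpb, both counted here, also stand in the immediate early list. Myc stood at 0.39 ± 0.09 (limma adjusted p = 0.0350), and its call was lost without any library other than Vav Cre 3, Tet2 KO 1, Tet2 KO 3 or double lesion 1 (adjusted p up to 0.0837). The count of 3 was 0 without Vav Cre 1, any KDM6B OE library, Tet2 KO 2 or double lesion 2, 1 without Vav Cre 2, double lesion 1 or double lesion 3, 5 without Tet2 KO 1 and 8 without Vav Cre 3.

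Among the enzymes of the H3K27 mark, 14 were tested, the value of mouse Kdm6b rose and Ezh2 fell. For Kdm6b the limit on reads of the human transcript given above holds. Ezh2, the PRC2 methyltransferase that opposes KDM6B (chromosome 6, 47530139 to 47595341), lay at 145 to 186 CPM (median 163) without and 103 to 140.4 CPM (median 137) with the transgene, and the arms did not overlap. Its difference was -0.33 ± 0.08 (limma adjusted p = 0.0313), and the call was lost without Vav Cre 1, any KDM6B OE library, Tet2 KO 3 or double lesion 1 (adjusted p up to 0.0781). Genes of the cell cycle fell as well, and their part in the value of Ezh2 was not tested. The paralogue Kdm6a did not pass (0.11 ± 0.18, limma adjusted p = 0.746). Of 14 DNA methylation enzymes none passed (3 without Vav Cre 3, 1 without Tet2 KO 1). Of 37 other histone lysine methylases and demethylases 1 passed, Kdm2a (0.39 ± 0.10, limma adjusted p = 0.0383). It lost its call without any library other than Vav Cre 3, Tet2 KO 1 or Tet2 KO 3 (adjusted p up to 0.117), and the count rose to 3 with Tet2 KO 1 and to 4 with Vav Cre 3 left out. Over all genes 5.83% were called.

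The clearest fall was in genes of G2 and M phase, which build the spindle and condense and part the chromosomes. All 44 were tested, 30 fell and none rose, with a median of -0.46, and all 44 values were negative. The summed list ran from 9523 to 11399 CPM in Vav Cre and from 7229 to 8302 CPM in KDM6B OE. It ran from 7509 to 9163 CPM in Tet2 KO and from 4433 to 6209 CPM in double lesion. Within each Tet2 background the transgene libraries all lay below the others, while KDM6B OE and Tet2 KO overlapped. Cdca3, a trigger of mitotic entry, lay at 129 to 229 CPM (median 164) without and 64.4 to 135 CPM (median 98.0) with the transgene, and changed by -0.80 ± 0.10 (limma adjusted p = 0.00046). Here KDM6B OE 3 lay above Tet2 KO 1, and the arms were apart otherwise. Nusap1, which bundles spindle microtubules (chromosome 2, 119618298 to 119651244, exons overlapping Oip5), lay at 255 to 384 CPM (median 293) and 108 to 242 CPM (median 192). Its difference was -0.75 ± 0.12 (limma adjusted p = 0.00401), the arms did not overlap, and double lesion 1 was lowest at 108 CPM. Top2a, which untangles DNA, stood at -0.58 ± 0.10, the proliferation marker Mki67 at -0.54 ± 0.10 and the mitotic kinase Cdk1 at -0.66 ± 0.13, all past the test in every alternative. Mki67 and Cdk1 were picked out after their values were seen. The count of 30 was 13 without KDM6B OE 1 or KDM6B OE 2, 15 without double lesion 1, 16 without Tet2 KO 3, 17 without Vav Cre 2, 18 without double lesion 3 and 19 without Vav Cre 1 or Tet2 KO 2. With the length and GC trend removed it was 35.

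Promoters of 3 genes that fell are shown because they hold CCAAT, the box bound by NF-Y, and in Top2a and Smc2 also TTTGAA, the core of the element that the DREAM complex binds in cell cycle promoters. Windows, strands and source are as above, and capitals mark both motifs on either strand. Cdca3 is chr6:124829926-124830175 on the plus strand, Top2a chr11:99024190-99024439 on the minus strand and Smc2 chr4:52438971-52439220 on the plus strand.
Cdca3: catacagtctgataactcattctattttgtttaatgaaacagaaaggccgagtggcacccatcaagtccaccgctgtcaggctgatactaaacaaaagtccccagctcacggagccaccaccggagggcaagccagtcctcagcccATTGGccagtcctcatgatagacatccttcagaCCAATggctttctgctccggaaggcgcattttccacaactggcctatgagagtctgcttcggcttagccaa
Top2a: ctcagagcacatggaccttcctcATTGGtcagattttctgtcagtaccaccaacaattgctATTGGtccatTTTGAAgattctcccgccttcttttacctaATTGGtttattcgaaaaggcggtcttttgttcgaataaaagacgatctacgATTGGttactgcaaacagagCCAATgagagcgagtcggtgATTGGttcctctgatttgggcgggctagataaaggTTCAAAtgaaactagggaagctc
Smc2: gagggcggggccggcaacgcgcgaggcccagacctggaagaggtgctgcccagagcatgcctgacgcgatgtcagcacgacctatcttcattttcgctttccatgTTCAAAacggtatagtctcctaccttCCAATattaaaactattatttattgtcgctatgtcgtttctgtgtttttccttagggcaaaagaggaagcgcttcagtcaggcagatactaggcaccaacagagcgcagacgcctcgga
CCAAT stood in 36.9% of all windows (2914 of 7905), in 46.6% of genes that fell (109 of 234), in 42.7% of genes that rose (100 of 234) and in 77.1% of the G2 and M phase list (27 of 35). At least 2 copies stood in 13.8%, 24.8%, 23.5% and 48.6% of the same sets. TTTGAA stood in 10.5% of all windows (829 of 7905), in 17.9% of genes that fell (42 of 234), in 8.55% of genes that rose (20 of 234) and in 37.1% of the list (13 of 35).

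Some chromosome structure and replication genes fell, where 2.71% of all genes tested fell. Of 22 cohesin and condensin genes 8 fell and 1 rose, with a median of -0.23. Smc2, Smc4 and Ncapg, counted here, also stand among the G2 and M phase genes that fell. Smc2, a core ATPase of condensin, lay at 241 to 398 CPM (median 279.6) without and 139 to 224 CPM (median 192) with the transgene, without overlap (-0.61 ± 0.09, limma adjusted p = 0.00401). Its partner Smc4 stood at -0.46 ± 0.09, also without overlap. Casc5, a kinetochore scaffold, stood at -0.68 ± 0.11 and lay at 81.5 to 148 CPM against 149.9 to 271 CPM. The kinase Melk (-0.57 ± 0.09) was among the 15 largest separated falls. Of 47 S phase and replication genes 5 fell and none rose, with a median of -0.12, and Tk1, thymidine kinase, stood at -0.53 ± 0.11 (limma adjusted p = 0.0202; up to 0.0633 without KDM6B OE 1 or KDM6B OE 2). The cohesin and condensin count of 9 was 2 without KDM6B OE 1 or KDM6B OE 2, 3 without double lesion 1, 4 without KDM6B OE 3, Tet2 KO 2, Vav Cre 1 or Vav Cre 2, and 5 without Tet2 KO 3 or double lesion 3. The S phase count of 5 was 0 without KDM6B OE 1, 1 without KDM6B OE 2 or double lesion 1, 3 without Vav Cre 1, Vav Cre 2, Tet2 KO 2, Tet2 KO 3 or double lesion 2, and 12 without Vav Cre 3, 2 of these higher. With the length and GC trend removed it was 13.

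Replication-dependent histone genes gave the largest separated falls but did not move as 1 group. Of 49 tested 7 fell and 2 rose, against 5.83% of all genes called in either direction, with a median of -0.37. These near-identical copies share reads, so single members are uncertain. The libraries were made from poly(A) RNA, so transcripts of these genes without a poly(A) tail may not be covered. Hist1h4d (chromosome 13, 23581598 to 23582735) lay at 222, 302 and 111 CPM in Vav Cre, 106, 154 and 104 CPM in Tet2 KO, 78.0, 82.3 and 73.3 CPM in KDM6B OE and 59.6, 86.8 and 63.5 CPM in double lesion. The spread in Vav Cre was wide, and the difference was -1.05 ± 0.20 (limma adjusted p = 0.0131). The linker histone gene Hist1h1e (exons overlapping Hist1h2be) stood at -0.98 ± 0.17, with 117 to 298 CPM without and 76.6 to 111 CPM with the transgene. Hist1h1c, another linker histone gene, rose by 0.86 ± 0.13 (limma adjusted p = 0.00401), from 27.4 to 49.9 CPM to 54.3 to 111 CPM. The list median was -0.80 with intact and 0.09 with floxed Tet2. The count of 9 was 3 without KDM6B OE 1, KDM6B OE 3 or double lesion 1, 4 without KDM6B OE 2, Tet2 KO 2 or Vav Cre 1, 5 without Vav Cre 2 or double lesion 3, and up to 13 without Tet2 KO 1.

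Of single genes outside these lists, Mt1, a metal-binding metallothionein, stood at -0.74 ± 0.19 and lay at 34.3 to 92.0 CPM (median 42.2) without and 23.9 to 32.6 CPM (median 29.9) with the transgene. Its call was lost without any library other than the 3 of Vav Cre, Tet2 KO 1 or double lesion 3 (limma adjusted p up to 0.0977). The zinc finger gene Zfp948 stood at -0.68 ± 0.14 and lost its call without KDM6B OE 2 or double lesion 1 (limma adjusted p up to 0.0547). The largest fall among genes past the test was that of Cotl1, an actin-binding protein, picked out after its values were seen. It lay at 203, 215 and 30.1 CPM in Vav Cre, 80.5, 206 and 92.9 CPM in Tet2 KO, 20.0, 36.7 and 146 CPM in KDM6B OE and 15.03, 17.1 and 16.0 CPM in double lesion. The arms overlapped with intact Tet2 and were apart with floxed Tet2. The averaged difference was -1.98 ± 0.52 (limma adjusted p = 0.0423), lost in 12 of 25 alternatives (adjusted p up to 0.162). Of the 15 largest separated rises all passed in every one of 25 alternatives, and of the 15 largest separated falls 7 did.

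Part of the genes of translation and respiration fell by small amounts, where 2.71% of all genes tested fell. Of 78 cytosolic ribosomal protein genes 40 fell and none rose, with a median of -0.37. Of 76 mitochondrial ribosomal protein genes 11 fell, with a median of -0.27, and of 75 nuclear-encoded respiratory chain genes 16 fell, with a median of -0.33. No member of these 3 lists rose. Rps2, of the small ribosomal subunit, lay at 977 to 1798 CPM (median 1243) without and 743 to 1123 CPM (median 927) with the transgene, so the arms overlapped, and stood at -0.45 ± 0.09 (limma adjusted p = 0.0195; up to 0.0597 without KDM6B OE 1, KDM6B OE 2 or double lesion 1). Sdhb, a subunit of succinate dehydrogenase, stood at -0.41 ± 0.09 and lost its call without KDM6B OE 1, Tet2 KO 2 or double lesion 1 (limma adjusted p up to 0.0637). Summed over the cytosolic list, Vav Cre held 41895 to 60019 CPM, KDM6B OE 34046 to 37658 CPM, Tet2 KO 33927 to 44391 CPM and double lesion 28380 to 32483 CPM. Vav Cre 2 was the highest.

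The number of these genes past the test depended on single libraries. With any 1 library left out the list medians stayed at -0.41 to -0.29 (cytosolic), -0.31 to -0.20 (mitochondrial) and -0.38 to -0.24 (respiratory chain). The cytosolic ribosomal count of 40 was 0 without KDM6B OE 1, KDM6B OE 2 or double lesion 1, 1 without Tet2 KO 2, 2 without KDM6B OE 3, 4 without double lesion 3, 9 without double lesion 2, 10 without Vav Cre 1, 12 without Vav Cre 2, 14 without Tet2 KO 3, 62 without Tet2 KO 1 and 68 without Vav Cre 3. The mitochondrial ribosomal count of 11 was 0 without KDM6B OE 1, KDM6B OE 2, Tet2 KO 2 or double lesion 1, at most 4 without Vav Cre 1, Vav Cre 2, KDM6B OE 3, Tet2 KO 3, double lesion 2 or double lesion 3, 23 without Tet2 KO 1 and 29 without Vav Cre 3. The respiratory chain count of 16 was 0 without KDM6B OE 1, Tet2 KO 2 or double lesion 1, 1 without KDM6B OE 2, 3 to 7 without Vav Cre 1, Vav Cre 2, KDM6B OE 3, Tet2 KO 3, double lesion 2 or double lesion 3, 37 without Tet2 KO 1 and 45 without Vav Cre 3. With Vav Cre 2 and Tet2 KO 2 both left out, the counts were 3, 0 and 0 and the medians -0.22, -0.15 and -0.18. The cytosolic ribosomal count was also 15 without a filter on low values, 17 with 1 mean per group, 26 with array weights and 72 with DESeq2. With a replicate block the 3 counts were 72, 32 and 52, although same-numbered libraries were not treated as paired. No member of the 3 lists rose in any of 25 alternatives.

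Transcript length moved with the transgene. Genes that fell had a median length of 1598 bases, genes that rose 3458 bases and all tested genes 3047 bases. Genes were split by length into 10 bins of like size. The median averaged difference was -0.22 in the shortest bin (55 to 1237 bases), which held 112 genes that fell and 22 that rose. It was 0.12 in bin 8 (4210 to 5000 bases), with 17 that fell and 53 that rose. In the shortest bin the median was -0.28 with intact and -0.17 with floxed Tet2. Across genes the difference went with length at a Spearman rho of 0.30 and with GC content at 0.25 (12952 genes, which are not independent replicates). With this trend removed from each library, 32 cytosolic ribosomal genes fell and their median was -0.22 in place of -0.37. The part of length in the results was not tested beyond this.

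**Figure D3:**
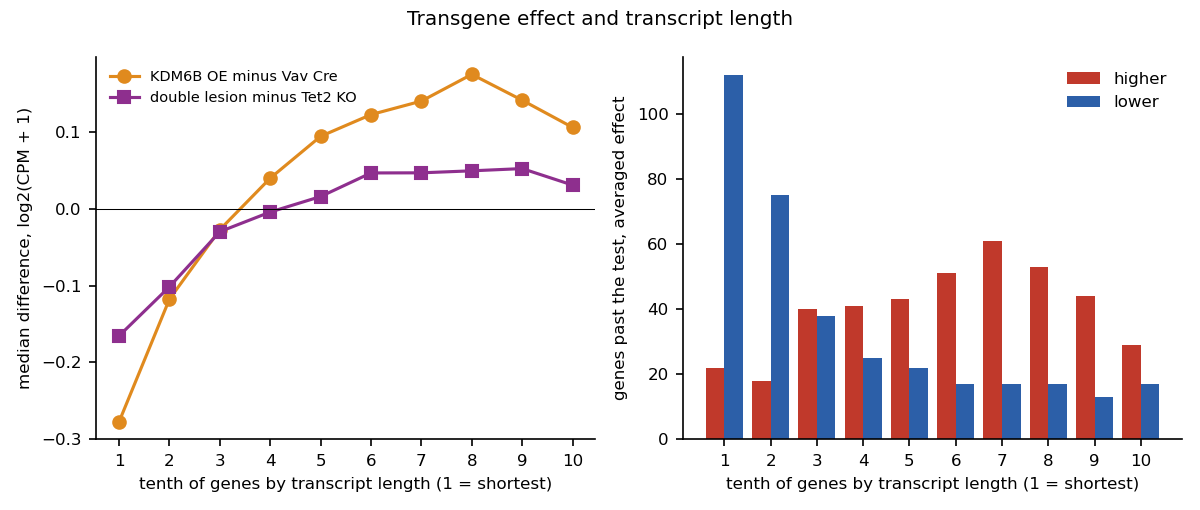
Transgene effect by transcript length, in 10 bins of the tested genes from shortest (1) to longest. Left, median log2(CPM + 1) difference in each Tet2 background. Right, genes of the averaged effect that rose or fell. The shortest bin has medians of -0.28 and -0.17 and 112 genes that fell.

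The averaged effect was then read within each Tet2 background, in 2 fits that share no library. With intact Tet2 (KDM6B OE against Vav Cre) 22 genes changed (0.169% of those tested), 21 of them higher. With floxed Tet2 (double lesion against Tet2 KO) 53 changed (0.406%), 47 higher and 6 lower. In both were 13 genes, 59.1% of the first set and 24.5% of the second, among them Klf6, Ier5, Ier2, Egr1, Zfp36, Dusp1, Junb, Btg2, Klf2, Dusp2, Rgs1 and Rhob. Rhob, a small GTPase, is named here only as a member of this overlap. All 22 and all 53 had the same sign in the other background, where 19 and 45 had an unadjusted limma p under 0.05. Over all tested genes 69.7% had the same sign in both, and the 2 differences went together at a Pearson r of 0.49 and a Spearman rho of 0.51 across genes, which are not independent replicates. Genes that rose on average had medians of 0.68 with intact and 0.58 with floxed Tet2, and genes that fell -0.44 and -0.37. These genes were picked by the average of the same 2 differences, which favours like signs and sizes.

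**Figure D4:**
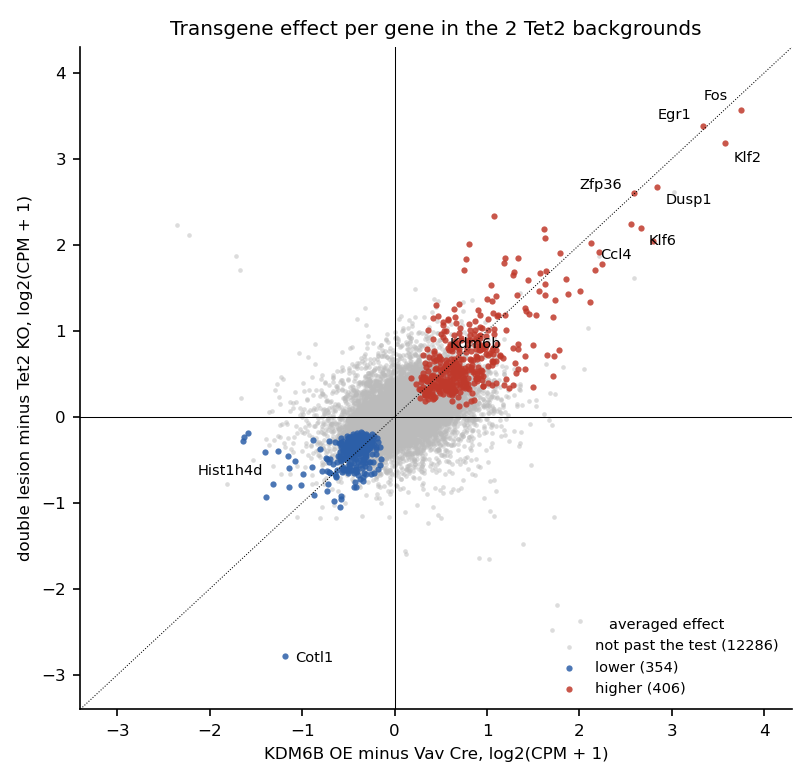
Transgene effect per gene with intact Tet2 (horizontal) and with floxed Tet2 (vertical), as log2(CPM + 1) differences from 2 fits that share no library. Each point is a tested gene, coloured by the averaged effect, and the dotted line marks equal differences. Fos, Klf2 and Egr1 lie at 3.18 to 3.75 on both axes, and none of the 760 coloured genes has opposite signs. The coloured genes were picked by the average of both axes, which favours like signs.

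Leading genes were then read in both backgrounds. Fos stood at 3.75 with intact and 3.56 with floxed Tet2, Egr1 at 3.34 and 3.39, Zfp36 at 2.59 and 2.60, and C1qb at 1.64 and 1.70. Socs3 stood at 1.72 and 0.70, and Ppp1r15a at 2.12 and 1.33. The G2 and M phase list had medians of -0.32 and -0.57, and the cytosolic ribosomal list -0.46 and -0.28. Interferon response genes had medians of 0.26 and -0.22. The difference between backgrounds was tested as an interaction in a fit with 1 mean per group, where no gene passed (578 genes, 4.43%, at an unadjusted limma p under 0.05; smallest adjusted p 0.753). edgeR also called 0 genes and DESeq2 called 5: Cables1, Pramef8, Il1rl1, Pomt2 and Uso1. Of the 760 genes of the averaged effect, 27 (3.55%) had an unadjusted interaction p under 0.05. The fit that picked them counted such a difference as spread, so the choice of genes favours a low share. A p that misses the threshold does not show that the backgrounds respond alike. The label names no Cre for KDM6B OE alone, so differences between backgrounds cannot be assigned to Tet2 apart from Cre.

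The number of genes called depended strongly on which library was left out. The count of 760 was 347 without Vav Cre 1, 330 without Vav Cre 2, 2206 without Vav Cre 3, 139 without KDM6B OE 1, 159 without KDM6B OE 2 and 304 without KDM6B OE 3. It was 1202 without Tet2 KO 1, 232 without Tet2 KO 2, 388 without Tet2 KO 3, 177 without double lesion 1, 341 without double lesion 2 and 341 without double lesion 3. Without both Vav Cre 2 and Tet2 KO 2 it was 223, with 142 higher and 81 lower. None of the 760 genes changed sign in any of these fits, which share most of their libraries. The intact count of 22 was 1228 without Vav Cre 3, 11 without Vav Cre 1 or KDM6B OE 3, 4 without KDM6B OE 1 and 3 without KDM6B OE 2. The floxed count of 53 was 99 without Tet2 KO 2, 33 without Tet2 KO 3, 25 without double lesion 1, 16 without double lesion 2 and 22 without double lesion 3.

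**Figure D5:**
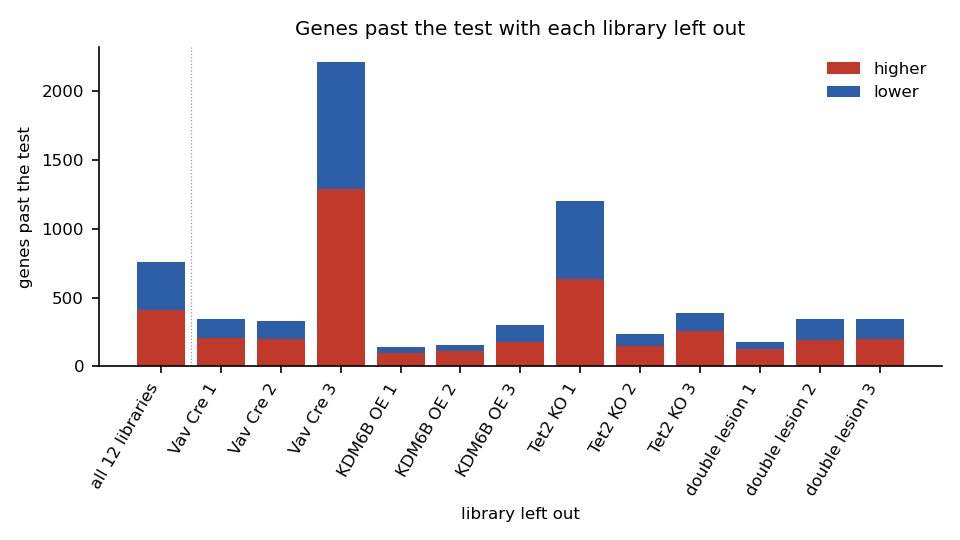
Genes past the limma test for the averaged effect with all 12 libraries and with each left out in turn, stacked as higher (red) and lower (blue). The bar for all libraries reaches 760, and the others run from 139 without KDM6B OE 1 to 2206 without Vav Cre 3.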

How the data were processed

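Poly(A) RNA of sorted LSK cells was amplified with a SMARTer kit and made into Nextera libraries, per the labels' protocols; such kits do not mark strand. Per the submitters' processing notes the authors used the build mm10 and the tools TopHat2 (2.0.10), HTSeq (0.6.0) and edgeR (3.8.6), with no roles stated. The sources used here do not name the annotation or the strand setting. From its values, the deposited signal is a CPM value, a whole read count over a scaled library size: 100% of values gave whole reads (tolerance 1e-06), and 1 read was worth 0.0373 to 0.0463 CPM. Plain CPM had been foreseen, and the planned test was kept. Columns were grouped by the labels' genotypes.

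Values were tested as log2(CPM + 1) after a filter that kept CPM above 1 in 3 or more libraries (2320 genes set aside) with limma 3.58.1 in R 4.3.3, a mean trend and terms for transgene and Tet2 (9 residual degrees of freedom). Fold changes on this scale understate low genes. Each background was fitted alone (4 degrees of freedom), and the interaction with 1 mean per group (8). Adjusted p-values are Benjamini-Hochberg over all genes tested, with calls under 0.05. Single values used exact permutation. Replicates differed by more than counting noise (chi-square per gene 19.5 to 101.0), so each was counted once.

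Positions, overlaps and transcript lengths (longest coding transcript) come from GENCODE vM21, which matched 15222 of 15366 symbols. Genes were named by a rule: targeted genes, the 15 largest separated changes in each direction with a mean of at least 5 CPM, up to 4 per list with the smallest p, and up to 6 by interaction. Members and the 45 gene lists were chosen with earlier results of these data known. Some genes stand in several lists. Alternatives were edgeR 4.0.16 and DESeq2 1.42.0 on recovered reads, other pseudocounts, filters and scalings, array weights, a replicate block, terms for Y transcripts and length, and leaving out each library. The steps were tested on simulated data. Results for a few genes are not reported here.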

Additional observations from a re-analysis of the deposited data

Results flagged for a closer look

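A library that stood apart from the other 5 of its arm by Dixon's test (a gap to the nearest library that takes up most of the arm's range) was found in 16 of 158 arms looked at. Chance gives about 5% of arms, and each arm of 6 mixes 2 genotypes. Among genes, Ezh2 was lowest in double lesion 1 (102.7 CPM, others 130.1 to 140.4). Nr4a1 was highest in KDM6B OE 1 (52.8 CPM, others 8.97 to 23.6) and Hist1h1e in KDM6B OE 3 (111.0 CPM, others 76.6 to 84.98). Fv1, a retroviral restriction gene, was highest among libraries without the transgene in Tet2 KO 2 (9.45 CPM, others 4.81 to 6.32). Esco2, a cohesin acetyltransferase, was lowest in double lesion 1 (24.1 CPM, others 40.2 to 47.3).

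Among summed lists, Vav Cre 2 was the lowest library without the transgene for NF-kB genes (1095 CPM, others 1300 to 1404). It was the highest for erythroid genes (6385 CPM, others 3512 to 3837), splicing factors (18594 CPM, others 16184 to 16747) and the respiratory chain (23300 CPM, others 14752 to 17862). Tet2 KO 2 was the highest for B cell genes (7885 CPM, others 386.3 to 1154) and MHC class II genes (2176 CPM, others 747.2 to 1276). With the transgene, double lesion 2 was highest for neutrophil granule genes (6891 CPM, others 3590 to 4689) and double lesion 3 for B cell genes (1805 CPM, others 644.1 to 1055). Double lesion 1 was lowest for replication-dependent histone genes (700.0 CPM, others 843.7 to 920.1). KDM6B OE 2 was highest for heat-shock genes (14767 CPM, others 9534 to 11294) and for the integrated stress and unfolded protein response (4915 CPM, others 4364 to 4566).

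In 3 named genes every KDM6B OE library lay above every Vav Cre library, and every double lesion library below every Tet2 KO library. These 3 were named for a small interaction p, which favours such a pattern, and its share over all genes is not given here. The transgene difference with floxed minus that with intact Tet2 put Pramef8 at -0.80, Pomt2 at -1.25 (exons overlapping Gstz1) and Uso1, a vesicle tether of the Golgi, at -0.76. None passed the limma interaction (smallest adjusted p over all genes 0.753), while DESeq2 called all 3.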

How the results depend on the processing

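No averaged call changed sign in any alternative run, but all runs reuse most of the same libraries, so a change of sign was unlikely. The count of 760 became 1715 with DESeq2 and 1603 with a replicate block, and 139 to 2206 with a library left out. The intact count of 22 became 14 with edgeR, 239 with DESeq2, 2 without a filter on low values, 815 with array weights, 78 as a contrast in the fit of all 12 libraries, and 3 to 1228 with a library left out. The floxed count of 53 became 356 with DESeq2, 10 without a filter, 151 with array weights, 116 with the replicate block, 28 in the fit of all 12, and 16 to 99 with a library left out. The interaction count of 0 became 5 with DESeq2. Without a filter 15366 genes were tested in place of 13046. The cause of these moves was not tested. With Vav Cre 2 and Tet2 KO 2 both left out, chosen after seeing the data, the averaged count was 223. In the remaining alternatives it lay between 547 and 909. Of 125 named genes past the test, 48 passed in every alternative and none reversed.

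Same-numbered libraries were not treated as paired, since not every pair correlated over 0.1. Their deviations correlated at -0.15 to 0.39 over 18 pairs, 10 of them over 0.1. All 6 pairs among libraries numbered 1 were over 0.1 (0.158 to 0.388), and 8 of 12 libraries matched their own number best, a hint from the data and not from the design. Reads carry no molecular identifiers, so 3 reads, the limit a count of 0 allows (at most 0.139 CPM), cover counting error only.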

Other observations

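Splicing factors moved in both directions. Of 37 tested, 4 rose and 4 fell, with a median of -0.02 against 0.02 over all genes. Over all genes tested 5.83% were called in either direction. The count of 8 was 1 without KDM6B OE 1 or double lesion 1, 2 without KDM6B OE 2, 3 without Vav Cre 1, Tet2 KO 3 or double lesion 2, 4 without Tet2 KO 2 or double lesion 3 and 5 without KDM6B OE 3. The SR protein genes Srsf5 and Srsf6 stood higher in all 6 transgene libraries (0.39 ± 0.08 and 0.31 ± 0.08, limma adjusted p = 0.0206 and 0.0350). Srsf5 lay at 636 to 746 CPM without and 759.8 to 1069 CPM with the transgene. U2af2, which binds the polypyrimidine tract at 3′ splice sites, stood at -0.82 ± 0.17 (limma adjusted p = 0.0196) and Luc7l3 at -0.44 ± 0.08 (limma adjusted p = 0.00993). Luc7l3 passed in every alternative, Srsf5 lost its call without KDM6B OE 1, Tet2 KO 2 or double lesion 1 (adjusted p up to 0.0632), and U2af2 without KDM6B OE 1, KDM6B OE 2 or double lesion 1 (up to 0.0563). Srsf6 reached an adjusted p of 0.0961.

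Glycolysis genes were split, and their count is read against the 5.83% of all genes called in either direction. Of 21 tested 3 rose and 1 fell, a count of 4 that was 7 without Vav Cre 3, 1 without KDM6B OE 1, KDM6B OE 2, Tet2 KO 2 or double lesion 1, and 2 without Vav Cre 2, KDM6B OE 3, Tet2 KO 3, double lesion 2 or double lesion 3. Slc2a3, a neuronal-type glucose transporter, rose by 0.69 ± 0.13 (limma adjusted p = 0.00977) and passed in every alternative, with 29.3 to 54.7 CPM (median 46.4) without and 47.3 to 81.9 CPM (median 75.6) with the transgene. Gapdh, a common reference gene, stood at -0.43 ± 0.09 (limma adjusted p = 0.0221; up to 0.0690 without KDM6B OE 1, KDM6B OE 2, Tet2 KO 2 or double lesion 1), with 800.03 to 1432 CPM without and 638 to 894 CPM with it.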
